A study of Homo sapiens with 8 samples.

Results

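SKP2, the F-box protein that marks cell cycle inhibitors for degradation, its cofactor CKS1B and 7 genes that encode inhibitors or phosphatases of cyclin-dependent kinases were followed in MiaPaCa-2 cells after silencing of BARD1. The 9 genes (SKP2, CKS1B, CDKN1B, CDKN1C, CDKN2A, CDKN2B, CDKN2C, CDKN2D and CDKN3) were chosen by name, and they were selected on results of BARD1 siRNA against control siRNA in these same libraries. Their log2 fold changes in that comparison are therefore given as a description with standard errors (SE) and without p-values. Of the 25945 genes listed in the table, 7 of the 9 had a row, and CKS1B had 2 rows, which gives 8 rows. CDKN2A and CDKN2B were not analysed here. All 8 rows passed the filter on low counts, as did 14528 genes in all.

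MiaPaCa-2 is an established human pancreatic cancer cell line, labelled wild type in all libraries. One group of 4 libraries came from cells transfected with BARD1 siRNA and the other group of 4 from cells transfected with a scrambled control siRNA (SCR), each harvested at 48 h. Silencing was transient, and the control cells received a transfection too. Polyadenylated RNA was sequenced. No label states that the libraries stem from separate cultures, and p-values here reflect the variation among these 8 libraries, some of which may be technical. In bulk RNA, fewer cells of one kind, such as cells in one cell cycle phase, and less RNA per cell cannot be told apart.

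Total gene counts ran from 27565777 to 36212716 in the BARD1 siRNA libraries and from 24458665 to 32627983 in the control siRNA libraries. BARD1 itself, in counts per 1000000 reads in genes (CPM, scaled by TMM), was at 3.56, 2.24, 2.45 and 7.59 CPM in BARD1 siRNA libraries 1 to 4, against 26.9, 28, 26.9 and 20.8 CPM in control siRNA libraries 1 to 4. That is 6.47-fold lower with BARD1 siRNA (edgeR log2 fold change -2.69, SE 0.36, adjusted p = 0.00397). The least complete silencing was in the library numbered 4. The libraries numbered 4 stood apart in both groups, and results that rest on them are given with and without them. Mitochondrial genes took 4.44% of counts in BARD1 siRNA library 4 and 0.695% to 1.75% in BARD1 siRNA libraries 1 to 3, against 3.26% in control siRNA library 4 and 1.43% to 2.02% in control siRNA libraries 1 to 3. Of the epithelial and ductal markers, KRT8, KRT18 and KRT19 were at 136 FPKM or more (fragments per kilobase of gene, scaled to depth) in every library, whereas EPCAM, CDH1 and KRT7 were at 0.157 FPKM or less. The mesenchymal gene VIM was at 603 FPKM or more in every library, and the fibroblast markers COL1A1, DCN and LUM were at 0.453 FPKM or less.

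Progress through the cell cycle is driven by cyclin-dependent kinases (CDKs) and restrained by small proteins that bind them. CDKN1B (p27) and CDKN1C (p57) belong to the Cip/Kip family, which binds complexes of cyclin and CDK. CDKN2A (p16), CDKN2B (p15), CDKN2C (p18) and CDKN2D (p19) form the INK4 family, which binds CDK4 and CDK6. SKP2 is the substrate receptor of an SCF ubiquitin ligase and, with CKS1B as cofactor, hands phosphorylated p27 to the proteasome, so that p27 is known to be governed largely at the level of the protein. CDKN3 is a phosphatase that removes the activating phosphate of CDK2 and CDK1. SKP2, CKS1B and CDKN3 transcripts are known to be higher in proliferating cells.

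Compared per gene length, CKS1B was the highest of the genes in both groups, at 75.8 ± 10.5 FPKM with BARD1 siRNA and 99.9 ± 11 FPKM with control siRNA (SD, n = 4 each). With BARD1 siRNA, CDKN3 followed at 36 ± 6.38 FPKM and CDKN1B at 35.2 ± 2.94 FPKM, whose ranges overlapped. SKP2 came next at 12.1 ± 1.7 FPKM and CDKN2C at 8.71 ± 1.19 FPKM. The lowest 3 rows, with overlapping neighbours, were CDKN2D at 3.68 ± 0.978 FPKM, CDKN1C at 2.05 ± 0.82 FPKM and the second CKS1B row at 1.67 ± 0.937 FPKM (SD, n = 4). The first 6 places were the same with control siRNA, where the ranges of SKP2 and CDKN1B overlapped. There CDKN3 was at 72.3 ± 11.7 FPKM, CDKN1B at 29.2 ± 1.61 FPKM and SKP2 at 28.1 ± 1.57 FPKM. CDKN2C was at 13 ± 2.48 FPKM, CDKN2D at 7.45 ± 0.922 FPKM, the second CKS1B row at 1.85 ± 0.582 FPKM and CDKN1C at 0.838 ± 0.217 FPKM, and the ranges of that last pair overlapped too. SKP2 was thus below CDKN1B in every BARD1 siRNA library, and not apart from it with control siRNA.

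**Figure D1:**
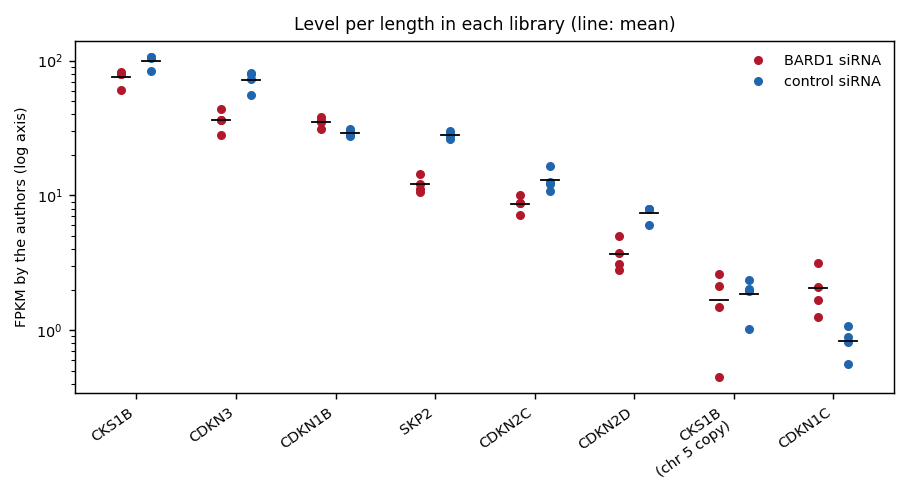
Deposited FPKM of the 8 rows in each BARD1 siRNA and control siRNA library, on a log axis, with points for libraries and bars for group means. CKS1B is highest in both groups, and SKP2 lies below CDKN1B with BARD1 siRNA (means 12.1 and 35.2 FPKM) and overlaps it with control siRNA (means 28.1 and 29.2 FPKM).

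SKP2 (ENSG00000145604, GRCh37 chromosome 5, 36152091 to 36184421, plus strand) was lower with BARD1 siRNA in every pair of equal number. It was at 42.5, 46.7, 40.7 and 50.7 CPM in BARD1 siRNA libraries 1 to 4, against 115, 110, 106 and 94 CPM in control siRNA libraries 1 to 4. The groups did not overlap: the highest BARD1 siRNA value was in library 4, which also held the lowest control siRNA value. The means were 45.1 ± 4.5 CPM with BARD1 siRNA and 106 ± 8.81 CPM with control siRNA (SD, n = 4 each), a 2.35-fold lower level after silencing. The log2 fold change was -1.23 (SE 0.10), and the authors' deposited table lists -1.15. Without both libraries numbered 4 it was -1.35. Leaving out each library in turn gave -1.29 to -1.19.

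The 3′ UTR of SKP2 holds a short sequence that is shared by many transcripts that were lower with BARD1 siRNA, described below with its counts. The octamer is ATACAGAA and its core hexamer TACAGA. The longest annotated SKP2 3′ UTR, of 2288 bases, holds the hexamer at 3 places, 1 of them within the octamer. They are shown here on the plus strand of GRCh38 with the matching bases in capitals, at chr5:36183221-36183250, chr5:36183823-36183852 and chr5:36183889-36183918.
SKP2 hexamer, first: tttttaaactggTACAGAgaagtgaaaaga
SKP2 hexamer, second: gaaattattgttTACAGAttagtgacaaga
SKP2 octamer: tgccctcaaacATACAGAActtccaaactc
The octamer lies 418 bases from the end of the UTR.

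CKS1B (ENSG00000173207, chromosome 1, 154947129 to 154951725, plus strand), which brings p27 to SKP2, was lower within each pair of equal number, but the groups overlapped. It was at 98.5, 95.9, 95.1 and 65.5 CPM in BARD1 siRNA libraries 1 to 4, against 123, 127, 127 and 92.5 CPM in control siRNA libraries 1 to 4. In both groups the library numbered 4 lay far below the other 3, and control siRNA library 4 fell within the range of the BARD1 siRNA libraries. The means were 88.7 ± 15.6 CPM with BARD1 siRNA and 117 ± 16.6 CPM with control siRNA (SD, n = 4 each), a 1.32-fold lower level after silencing. The log2 fold change was -0.40 (SE 0.15), and with the replicate number as a block it was -0.41 with the smaller SE of 0.06. BARD1 siRNA libraries held 80.3%, 75.4%, 75% and 70.8% of the control level for numbers 1 to 4.

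A second row also named CKS1B (ENSG00000268942, chromosome 5, 61808070 to 61808309, minus strand) held 13, 20, 15 and 3 reads in BARD1 siRNA libraries 1 to 4, against 12, 14, 8 and 14 reads in control siRNA libraries 1 to 4. The groups overlapped, at 0.409 ± 0.236 CPM with BARD1 siRNA and 0.444 ± 0.141 CPM with control siRNA (SD, n = 4 each), and the log2 fold change of -0.11 (SE 0.55) turned to 0.22 without both libraries numbered 4. The row overlaps KIF2A and IPO11 on the opposite strand, and no source used here states whether reads were counted by strand. It may also share reads with the gene on chromosome 1, so its values are uncertain. The pseudogenes CKS1BP7 and CKS1BP6 held at most 5 reads and 1 read in a library.

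**Figure D2:**
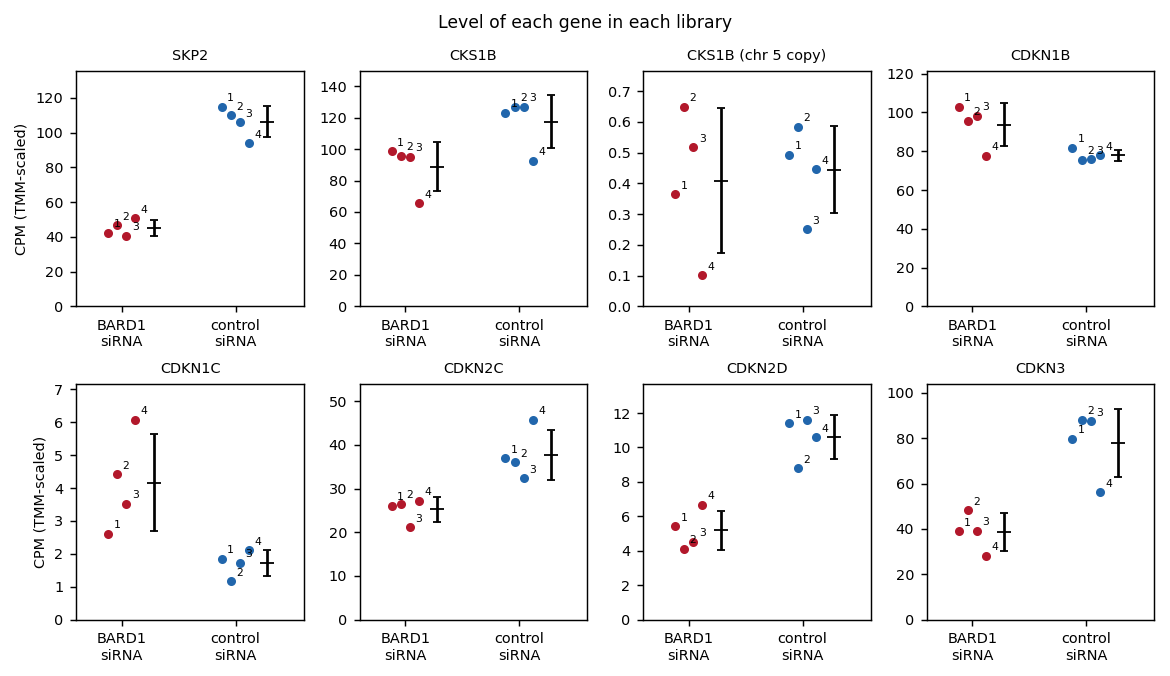
CPM (TMM-scaled) of each row in the 4 BARD1 siRNA and 4 control siRNA libraries, with points marked by library number and bars for group means ± SD. SKP2, CDKN2C, CDKN2D and CDKN3 are lower and CDKN1C is higher in all BARD1 siRNA libraries than in all control siRNA libraries, whereas CKS1B and CDKN1B overlap through the libraries numbered 4.

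Of the Cip/Kip genes, CDKN1B (ENSG00000111276, chromosome 12, 12867992 to 12875305, plus strand), which encodes p27, the best known SKP2 substrate, was slightly higher with BARD1 siRNA in 3 of 4 pairs. It was at 103, 95.7, 98.2 and 77.7 CPM in BARD1 siRNA libraries 1 to 4, against 81.9, 75.7, 75.9 and 77.9 CPM in control siRNA libraries 1 to 4. Libraries 1 to 3 with BARD1 siRNA were above all control siRNA libraries, and library 4 lay within the control range. The means were 93.7 ± 11.2 CPM with BARD1 siRNA and 77.8 ± 2.87 CPM with control siRNA (SD, n = 4 each), a ratio of 1.2. The log2 fold change was 0.27 (SE 0.10), 0.26 (SE 0.07) with the replicate number as a block and 0.35 without both libraries numbered 4.

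CDKN1C (ENSG00000129757, chromosome 11, 2904443 to 2907111, minus strand), which encodes p57 and is known as an imprinted gene, was low and was higher with BARD1 siRNA. It held 93, 136, 102 and 179 reads in BARD1 siRNA libraries 1 to 4, against 45, 28, 55 and 66 reads in control siRNA libraries 1 to 4. These were worth 2.61, 4.42, 3.52 and 6.07 CPM with BARD1 siRNA, against 1.85, 1.17, 1.73 and 2.11 CPM with control siRNA, and the groups did not overlap. The means were 4.16 ± 1.47 CPM with BARD1 siRNA and 1.71 ± 0.396 CPM with control siRNA (SD, n = 4 each), a 2.42-fold higher level after silencing. The log2 fold change was 1.27 (SE 0.31) and ran from 1.03 to 1.44 when libraries were left out in turn. Within pairs of equal number the level was 141% to 378% of the control.

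Both INK4 genes analysed were lower with BARD1 siRNA. CDKN2C (ENSG00000123080, chromosome 1, 51426417 to 51440305, plus strand), which encodes p18, was at 26.1, 26.5, 21.1 and 27.2 CPM in BARD1 siRNA libraries 1 to 4, against 36.9, 36, 32.3 and 45.7 CPM in control siRNA libraries 1 to 4. The groups did not overlap, and library 4 was the highest of each. The means were 25.2 ± 2.79 CPM with BARD1 siRNA and 37.7 ± 5.7 CPM with control siRNA (SD, n = 4 each), a 1.5-fold lower level after silencing, with a log2 fold change of -0.58 (SE 0.13). CDKN2D (ENSG00000129355, chromosome 19, 10677138 to 10679735, minus strand), which encodes p19, was at 5.42, 4.13, 4.53 and 6.68 CPM in BARD1 siRNA libraries 1 to 4, against 11.4, 8.81, 11.6 and 10.6 CPM in control siRNA libraries 1 to 4. These groups did not overlap either. The means were 5.19 ± 1.13 CPM with BARD1 siRNA and 10.6 ± 1.27 CPM with control siRNA (SD, n = 4 each), a 2.05-fold lower level after silencing, with a log2 fold change of -1.03 (SE 0.19). Its BARD1 siRNA libraries held 47.3%, 46.9%, 39.1% and 62.8% of the control level for numbers 1 to 4.

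The listed genes nearest the INK4 locus on chromosome 9 were almost without reads in both groups. MiaPaCa-2 is known to carry a homozygous deletion that includes CDKN2A, and MTAP, which encodes an enzyme of methionine salvage, lies beside it. MTAP (GRCh37 chromosome 9, 21802542 to 21932738) held 1 read over all 8 libraries. All 25945 genes listed in the table had reads in some library, so a gene without any reads is not among those listed. Within 3 Mb to either side of MTAP the table listed 19 genes, of which 8 had at most 3 reads in every library. The share of all genes with so few reads was not computed, and 14528 of all 25945 passed the filter on low counts. Nothing is therefore read from this count. In the same window 6 genes had a mean over 1 FPKM with control siRNA, among them RPS6, with 295070 reads over all 8 libraries. FOCAD, on the side of lower coordinates, held 1 read over all 8 libraries and ELAVL2, on the other side, held 6. The nearest gene with a mean over 1 FPKM in control siRNA libraries was ACER2, at 1.02 FPKM and 2350524 bp from MTAP, and none on the other side of MTAP reached that level in the window.

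CDKN3 (ENSG00000100526, chromosome 14, 54863567 to 54886936, plus strand), the CDK phosphatase, was lower with BARD1 siRNA by about the same factor in each pair. It was at 39.1, 48.4, 39.3 and 28.2 CPM in BARD1 siRNA libraries 1 to 4, against 79.8, 88.1, 87.4 and 56.3 CPM in control siRNA libraries 1 to 4. The groups did not overlap, and library 4 was the lowest of each. The means were 38.7 ± 8.24 CPM with BARD1 siRNA and 77.9 ± 14.9 CPM with control siRNA (SD, n = 4 each), a 2.01-fold lower level after silencing, and the log2 fold change was -1.01 (SE 0.18). Its BARD1 siRNA libraries held 49%, 54.9%, 44.9% and 50.1% of the control level for numbers 1 to 4, the last in the pair with the least complete BARD1 silencing.

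**Figure D3:**
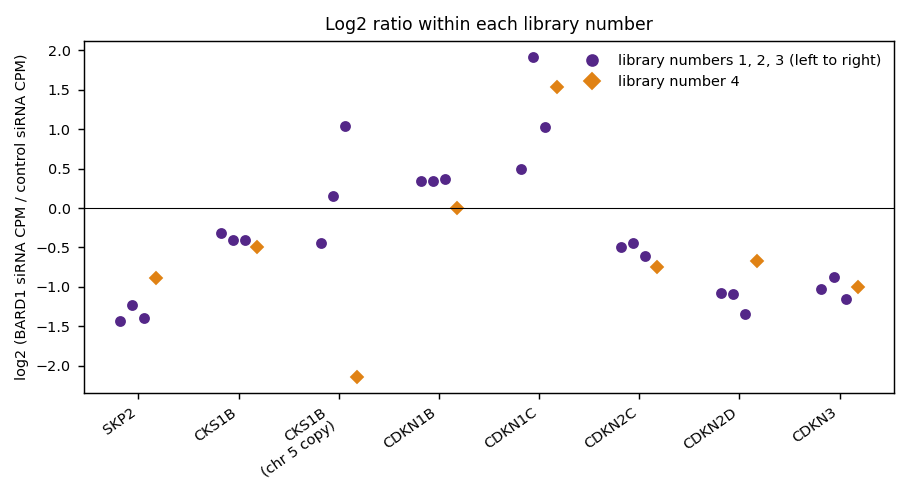
Log2 ratio of the BARD1 siRNA to the control siRNA library of the same number, for numbers 1 to 3 (circles) and 4 (diamonds). SKP2 and CDKN2D are nearer to 0 in pair 4 than in the other pairs (-0.89 and -0.67) and CDKN1B is at 0 there, whereas CDKN3 in pair 4 (-1.0) lies among the others and the second CKS1B row, of few reads, spreads widely.

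The pair numbered 4, in which 36.5% of BARD1 was left, against 8.02% to 13.3% in the others, differed from them gene by gene. For SKP2 the log2 ratio was -0.89 in pair 4, against -1.43, -1.23 and -1.39 in pairs 1 to 3. For CDKN2D it was -0.67 in pair 4, against -1.08, -1.09 and -1.35 in pairs 1 to 3. Both were thus nearer to 0 in pair 4. For CDKN1B it was -0.00 in pair 4 and 0.34 to 0.37 in pairs 1 to 3. For CDKN1C it was 1.53 in pair 4, against 0.50, 1.92 and 1.03 in pairs 1 to 3, and so within their range. For CKS1B, CDKN2C and CDKN3 pair 4 gave -0.50, -0.75 and -1.0, against -0.32 to -0.41, -0.44 to -0.61 and -0.87 to -1.15 in pairs 1 to 3, and so not nearer to 0. These differences rest on 1 pair and were not tested. The BARD1 share in pair 4 also rests on the lowest control siRNA value, 20.8 CPM in library 4. In the comparison of libraries numbered 4 with the others, given below, 46.2% of all genes tested passed the threshold.

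In the fit over all genes, 5 of the 8 rows were past the adjusted p threshold of 0.05, which 5.05% of all genes tested passed. SKP2, CDKN2C, CDKN2D and CDKN3 were among the 3.22% called lower and CDKN1C among the 1.82% called higher. Nothing is read from this count, since the genes were selected on this comparison. Upper-quartile scaling moved the split of all calls to 470 lower and 413 higher, against 468 lower and 265 higher with TMM. With that scaling CDKN2C, at a log2 fold change of -0.56, was no longer past the threshold. Ranges of the groups did not overlap in 4 rows that were lower, as in 7.52% of all genes, and in 1 row that was higher, as in 5.46%. With the replicate number as a block 7 of 8 rows were past the threshold, CKS1B and CDKN1B being added, but so were 23.6% of all genes, 12.6% lower and 11% higher. Without both libraries numbered 4 the count was again 7, beside 30.4% of all genes. Of the rows called, SKP2 alone stayed past the threshold whichever library was left out. The fits with libraries left out reuse the values that the selection rested on. Which rows stayed past the threshold is therefore a description and no support. Without library 1 or 3 of either group it was the 1 row called, beside 1.29% and 1.2% of all genes without the control siRNA libraries and 1.35% and 1.39% without the BARD1 siRNA libraries. It was joined by CDKN3 without BARD1 siRNA library 2 (1.66% of all genes called) and by CDKN2D without control siRNA library 2 (1.34%). Without BARD1 siRNA library 4 there were 6 rows, CDKN1B being added, beside 16.9% of all genes, and without control siRNA library 4 there were 5, beside 5.85%.

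A comparison that did not enter the choice of these genes is that of the libraries numbered 4 with those numbered 1 to 3, over both siRNAs and with the siRNA as a term. It asks how the genes varied between libraries treated alike, and what number 4 stands for is not given in the labels. The split was itself chosen because earlier results of these data showed the libraries numbered 4 apart. Its p-values therefore describe these libraries and are no independent support. In this comparison 46.2% of all genes tested passed the threshold, 3506 genes (24.1%) as lower and 3206 as higher. Of the 8 rows 3 passed, 2 as lower and 1 as higher. Beside those shares nothing is read from this count. This fit counts the libraries of 1 number as independent, although they deviated together, so its p-values are too small. Another fit, chosen after seeing the data, therefore used the mean log2 CPM of each number and set 1 number against 3 with limma, taking number 4 to vary like the others, and 45.8% of all genes passed. CKS1B was lower in the libraries numbered 4, with a log2 difference of -0.50 (SE 0.06, edgeR adjusted p = 7.2e-06), and CDKN3 was lower by a log2 difference of -0.59 (SE 0.09, edgeR adjusted p = 3.86e-05). CDKN2C was higher, with a log2 difference of 0.27 (SE 0.10, edgeR adjusted p = 0.0373). The call for CDKN2C was lost when control siRNA library 1, 2 or 3 was left out, or library 3 with BARD1 siRNA, and the adjusted p then reached 0.096. With the number as the unit CKS1B (-0.50, limma adjusted p = 1.04e-05) and CDKN3 (-0.58, limma adjusted p = 7.43e-05) passed again, CDKN2C did not (0.27, limma adjusted p = 0.0531), and CDKN1B passed just inside the threshold (-0.17, limma adjusted p = 0.0494). For SKP2 the log2 difference was -0.00 (SE 0.09, edgeR adjusted p = 0.995), and it took either sign across scalings and left-out libraries. This value averages opposite differences in the siRNA groups. SKP2 in library 4 was highest with BARD1 siRNA (50.7 CPM, against 40.7 to 46.7 CPM in libraries 1 to 3). With control siRNA it was lowest there (94 CPM, against 106 to 115 CPM in libraries 1 to 3). CDKN1B (-0.17, SE 0.08, edgeR adjusted p = 0.0886), CDKN1C (0.62, SE 0.27, edgeR adjusted p = 0.0687) and CDKN2D (0.25, SE 0.18, edgeR adjusted p = 0.264) did not pass in edgeR either, nor did the second CKS1B row (-0.82, SE 0.69, edgeR adjusted p = 0.354). With upper-quartile scaling CDKN1C passed, at 0.71 (adjusted p = 0.0394). All 12 of 12 mitotic genes listed (such as MKI67, TOP2A and AURKA) were lower in the libraries numbered 4, with a median log2 difference of -0.63, against 0.02 over all genes tested. The part of the mitotic genes in the differences of CKS1B and CDKN3 was not tested.

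**Figure D4:**
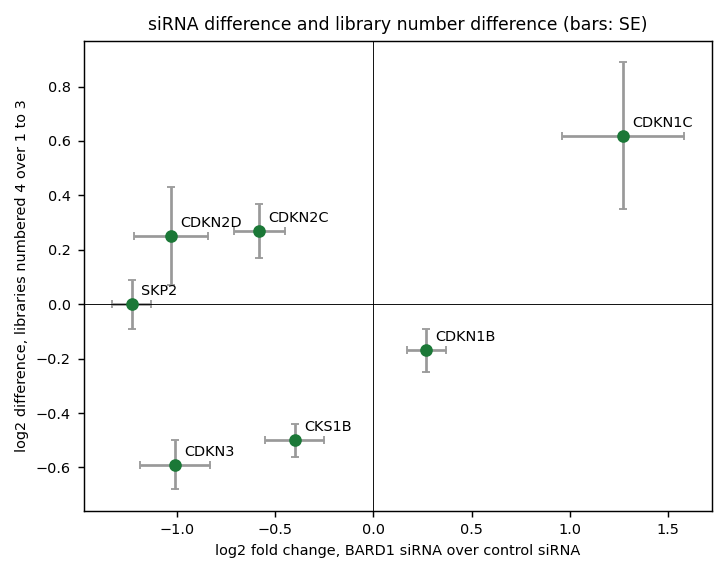
Log2 fold change of BARD1 siRNA over control siRNA (x axis) against the log2 difference of libraries numbered 4 over those numbered 1 to 3 (y axis), for the genes described, with bars for SE. CKS1B and CDKN3 lie below 0 on both axes, SKP2 lies at -1.23 and -0.00, and CDKN2C lies at -0.58 and 0.27. The y axis averages over both siRNAs, between which SKP2 differed in opposite directions in library 4.

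The promoters of CKS1B and CDKN3, the 2 genes called lower in the libraries numbered 4 in both fits, are shown because promoters of genes expressed late in the cell cycle are known for CCAAT boxes and for an element that holds TTTGAA. The 250 bases before the annotated start are given from RefSeq, build GRCh38.p14, with CCAAT and TTTGAA on either strand in capitals (ATTGG and TTCAAA on the other strand). They lie at chr1:154974431-154974680 and chr14:54396757-54397006, both on the plus strand.
CKS1B: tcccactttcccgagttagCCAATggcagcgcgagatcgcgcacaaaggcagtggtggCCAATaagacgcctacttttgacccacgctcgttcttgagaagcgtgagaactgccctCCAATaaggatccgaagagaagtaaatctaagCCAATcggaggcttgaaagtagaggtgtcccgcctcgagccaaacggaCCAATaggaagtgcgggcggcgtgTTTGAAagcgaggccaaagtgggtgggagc
CDKN3: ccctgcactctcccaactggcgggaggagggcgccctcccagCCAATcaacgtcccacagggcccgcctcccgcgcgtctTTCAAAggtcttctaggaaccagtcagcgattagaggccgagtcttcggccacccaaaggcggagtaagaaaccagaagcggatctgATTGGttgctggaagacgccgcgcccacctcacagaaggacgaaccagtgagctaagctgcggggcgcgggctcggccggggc
CKS1B holds CCAAT at 5 places and TTTGAA once, 30 bases before the start. CDKN3 holds CCAAT at 2 places and TTTGAA once, on the minus strand 170 bases before the start. Of 35116 promoters of this length, 32% hold CCAAT, 13.3% hold TTTGAA and 4.69% hold both. CDKN1B holds CCAAT at 2 places, CDKN2D at 1 place and CDKN2C at 1 place before 1 of its 3 listed starts, while SKP2 holds neither motif in this window. A match is a description of the letters and says nothing of binding.

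The octamer of the SKP2 3′ UTR was found by comparing fold changes with the annotated 3′ UTRs (GENCODE v29, GRCh38, the longest of each gene) of 12007 protein-coding genes tested. Among 55191 octamers held by at least 50 of these genes, ATACAGAA had the lowest median log2 fold change, so what follows is a description, drawn from the comparison it describes. UTRs were read on the transcript strand only. Of the 12007 genes, 725 (6.04%) hold the octamer, and their median log2 fold change was -0.15, against -0.11 for the next octamer in that order. Of these 725 genes, 128 were called lower and 6 higher.

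Shares for shorter matches are a description too. They are parts of an octamer that was chosen on these same fold changes, so their order is no support. The 2149 genes that hold a heptamer of it but not the octamer (ATACAGA or TACAGAA) had a median log2 fold change of -0.01, with 141 called lower and 53 higher. The 1674 genes that hold the hexamer TACAGA only had a median of 0.03, with 42 called lower and 46 higher. The 7459 genes with none of these had a median of 0.01, with 144 called lower and 143 higher. The share called lower was thus 17.7% with the octamer, 6.56% with a heptamer, 2.51% with the hexamer and 1.93% with none, against 3.79% of all 12007. UTR length differed as well, with medians of 3215, 2760, 2264 and 831 bases in the 4 classes in that order, and its part was not tested.

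SKP2 had the 25th lowest log2 fold change of the 725 genes with the octamer and the 53rd lowest of all 12007. SKP2 and the octamer were both chosen on this comparison, so nothing is read from these ranks. None of the other genes described holds the hexamer in its longest 3′ UTR, of 553 bases in CKS1B, 1344 in CDKN1B, 703 in CDKN1C, 363 in CDKN2C, 596 in CDKN2D and 589 in CDKN3. The log2 fold changes of CDKN2D and CDKN3 were -1.03 and -1.01, against -1.23 for SKP2. BARD1 holds the hexamer only. Short interfering RNAs are known to lower transcripts other than their target through short matches between the 5′ part of the guide strand and the 3′ UTR. No source used here gives the sequence of the siRNA, and whether such matches had a part in the level of SKP2 was not tested.

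**Figure D5:**
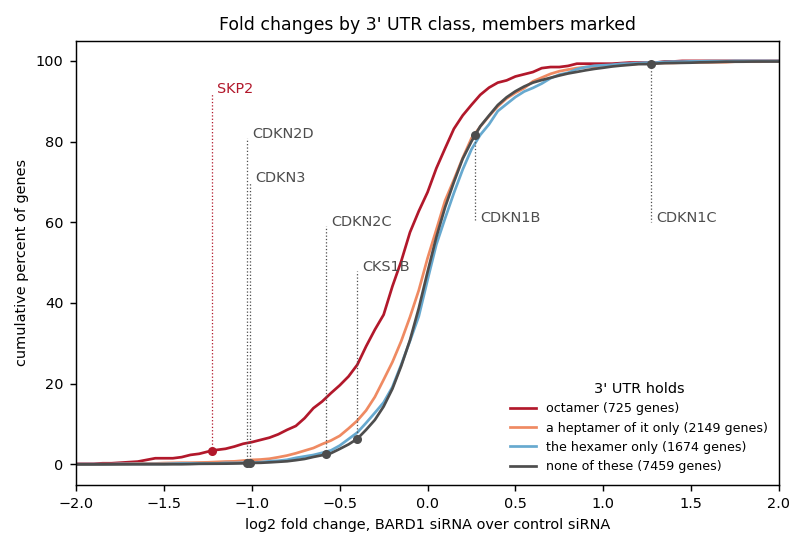
Cumulative percent of genes by log2 fold change of BARD1 siRNA over control siRNA, for genes whose longest 3′ UTR holds the octamer (725 genes), a heptamer of it (2149), the hexamer only (1674) or none (7459), with the genes described marked on the curve of their class. The octamer curve lies to the left of the others, SKP2 is on it at -1.23, and the other genes are on the curve of UTRs with none.

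The 5 genes with the pattern most like SKP2 over the 8 libraries were ABCD3, USP22, TIPRL, XPR1 and CHML, by Pearson's r of log2 CPM among 9743 protein-coding genes with a mean of at least 5 CPM. Their r with SKP2 was 0.996, 0.996, 0.996, 0.996 and 0.995, given as a description because the 8 points share the siRNA groups. Their log2 fold changes were -1.45, -0.79, -1.19, -1.26 and -1.53. ABCD3, USP22 and XPR1 hold the octamer in the longest 3′ UTR and TIPRL and CHML a heptamer. Of all 12007 genes 6.04% hold the octamer and 17.9% a heptamer only, and of the 455 called lower 128 and 141 do. The octamer and these 5 genes were both picked on differences between the same siRNA groups. Nothing is therefore read from their overlap.

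The genes around SKP2 are given from lists set up by known roles, but with earlier results of this comparison known, so their counts and p-values describe these libraries and are no independent support. In these lists, fell and rose mean past the threshold as lower or as higher. Over all genes tested 3.22% fell and 1.82% rose, and with the replicate number as a block 12.6% fell and 11% rose. DESeq2 called 1549 genes in either direction. The share of all genes at an unadjusted p under 0.05 is not given. Of 12 genes of the SCF core and of its activation by NEDD8, none passed the threshold in edgeR (2 at an unadjusted p under 0.05, 1 in DESeq2), 3 did with the replicate number as a block (1 lower, 2 higher), and the median log2 fold change was -0.00, against 0.01 over all genes tested. SKP1, the adaptor that holds F-box proteins, was at 387 ± 35.3 CPM with BARD1 siRNA and 351 ± 7.9 CPM with control siRNA (SD, n = 4 each). NAE1, a subunit of the enzyme that activates NEDD8, was at 201 ± 21 CPM with BARD1 siRNA and 222 ± 21.9 CPM with control siRNA (SD, n = 4 each). Of 10 other F-box genes of the cell cycle, BTRC, the receptor of another SCF ligase, rose (edgeR log2 fold change 0.38, SE 0.09, adjusted p = 0.037), while none fell, with a median of -0.09. With the block 3 fell and 2 rose. Of these F-box genes 2 were at an unadjusted p under 0.05 in edgeR, and 2 passed in DESeq2.

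The APC/C is the ubiquitin ligase that, with FZR1 as activator, is known to degrade SKP2 in G1. Of its 16 genes 2 fell and none rose, with a median log2 fold change of -0.23, and with the block 7 fell and 1 rose. In edgeR 7 of them were at an unadjusted p under 0.05, and 5 passed in DESeq2. CDC27, a core subunit, was at 115 ± 15.8 CPM with BARD1 siRNA and 185 ± 33.1 CPM with control siRNA (SD, n = 4 each; edgeR log2 fold change -0.69, SE 0.15, adjusted p = 0.0304). FZR1 was at 69.8 ± 4.92 CPM with BARD1 siRNA and 89.5 ± 5.54 CPM with control siRNA (SD, n = 4 each; edgeR log2 fold change -0.36, SE 0.08, adjusted p = 0.0381). Of 8 reported SKP2 substrates outside the genes described, none passed in edgeR (3 at an unadjusted p under 0.05, 1 in DESeq2), 3 fell and 2 rose with the block, and the median was 0.07. The transcription factor MYBL2 was at 420 ± 74.9 CPM with BARD1 siRNA and 495 ± 60.7 CPM with control siRNA, and the antiproliferative TOB1 at 71.8 ± 4.38 CPM with BARD1 siRNA and 61.3 ± 8.38 CPM with control siRNA (SD, n = 4 each).

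Among the partners of the inhibitors, 3 of 13 CDKs, CDK-activating and CDK-modifying genes fell and none rose, with a median log2 fold change of -0.02. With the block 6 fell and 3 rose. In edgeR 7 of the 13 were at an unadjusted p under 0.05, and 6 passed in DESeq2. CDC25C, the phosphatase that activates CDK1 at mitosis, fell (-0.74, SE 0.14, edgeR adjusted p = 0.018). So did CCNH, the cyclin of the CDK-activating kinase (-0.51, SE 0.11, edgeR adjusted p = 0.0315), and PKMYT1, an inhibitory kinase of CDK1 (-0.58, SE 0.14, edgeR adjusted p = 0.0471). Of 7 cyclins tested 1 fell and none rose, with a median of -0.37, and with the block 4 fell and 1 rose. In edgeR 5 of the cyclins were at an unadjusted p under 0.05, and 2 passed in DESeq2. CCNA2, the S and G2 phase cyclin, was at 48.8 ± 9.09 CPM with BARD1 siRNA and 159 ± 35.5 CPM with control siRNA (SD, n = 4 each; edgeR log2 fold change -1.71, SE 0.19, adjusted p = 0.00168). Of the 9 list genes called, CCNA2 and CDC27 hold the octamer in the longest 3′ UTR, CDC25C a heptamer and AURKA the hexamer only. FZR1, PKMYT1, CCNH and KIF11 fell and hold none of them, and BTRC rose and holds a heptamer. Of all 455 protein-coding genes called lower, 128 hold the octamer, 141 a heptamer only, 42 the hexamer only and 144 none. Nothing is read from the classes of these few genes.

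Of 12 mitotic genes 2 fell in edgeR and none rose, with a median log2 fold change of -0.41, and with the block 11 fell (over all genes 3.22% in edgeR and 12.6% with the block). In edgeR 8 of them were at an unadjusted p under 0.05, and 4 passed in DESeq2. AURKA, a mitotic kinase, was at 89.6 ± 18.2 CPM with BARD1 siRNA and 201 ± 33.9 CPM with control siRNA (SD, n = 4 each; edgeR log2 fold change -1.17, SE 0.17, adjusted p = 0.0066). KIF11, a spindle motor, fell less (-0.71, SE 0.15, edgeR adjusted p = 0.0314). The part of the mitotic genes in the values of SKP2, CKS1B and CDKN3 was not tested. Of 9 Polycomb genes known to act on the INK4 locus none passed in edgeR (1 at an unadjusted p under 0.05, 1 in DESeq2), 3 fell with the block, and the median was -0.17. EZH2 was at 147 ± 30.2 CPM with BARD1 siRNA and 168 ± 20 CPM with control siRNA, and SUZ12 at 120 ± 20 CPM with BARD1 siRNA and 147 ± 17.8 CPM with control siRNA (SD, n = 4 each). Of 11 neighbours on 9p21, 2 had enough reads for the test, PLAA (-0.05, edgeR adjusted p = 0.913) and IFT74 (-0.32, edgeR adjusted p = 0.24), and neither passed (1 at an unadjusted p under 0.05, 0 in DESeq2). Of the 9 genes called over these lists, CCNA2 and AURKA passed whichever library was left out. The other 7 were each lost when library 1 or 3 of either group, or control siRNA library 2, was left out. All of them but CDC25C were also lost without BARD1 siRNA library 2, and BTRC and FZR1 without control siRNA library 4. Their highest adjusted p was 0.0754 to 0.159.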

How the data were processed

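The deposited table holds whole-number read counts per gene and FPKM by the authors for each library, and FPKM equalled the count divided by gene length and total count to a relative difference of 5e-12. The submitters' processing notes name GRCh37 (hg19) as the build, and the tools fastp, featureCounts and HISAT2, the last in version 2.0.5. The authors' deposited log2 fold changes and p-values come from a tool that no source used here names. The authors' scaled counts, a signal in 8 per-sample columns as deposited, were left aside, and 22217 rows that named no gene held 0 reads. 26 gene names turned into dates were restored from their identifiers. The labels name a directional and a non-directional protocol and do not say which was used.

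The counts went into edgeR (version 4.0.16, under R 4.3.3): filterByExpr, TMM, the quasi-likelihood F-test, two-sided, BARD1 siRNA against control siRNA with no further term, Benjamini-Hochberg over 14528 genes, threshold 0.05. SEs are those implied by the F statistics. A second fit compared libraries numbered 4 with 1 to 3, with the siRNA as a term, and limma (version 3.58.1, trend, prior count 2) repeated it on means per number. At 24458665 to 36212716 counts per library, 3 counts were worth 0.0828 to 0.123 CPM, and this covers counting error only. DESeq2 (version 1.42.0), 2 other scalings, no filter, a replicate block, each library left out in turn and both libraries numbered 4 left out were the alternatives. The fit was also run on simulated counts with known changes. Those libraries were independent, varied less than the present ones and shared no other deviation by number. That run checks the code and does not give the rate of right or false calls in these libraries.

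Same-numbered libraries deviated together from their group means (correlations 0.49, 0.487, 0.596 and 0.856 for numbers 1 to 4 over 10146 genes). Deviations within a group cancel out, and number 4 stood apart in both groups. Libraries of the other numbers would therefore tend to deviate together even if mismatched, and values for mismatched libraries are not given. The correlations thus cannot show whether the other numbers are matched between the groups. Pairing by the labels' numbers is an assumption, and results with the block or by pair rest on it. With the block, edgeR's biological coefficient of variation was 10.6%, against 23.7% in the fit that lacks it.

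The members and lists were chosen with earlier results of these data known. Named from each list were genes past the threshold, at most 4 by p, or in a list with none the 2 highest by FPKM. The window on chromosome 9 was set 3 Mb to either side of MTAP, the neighbour of CDKN2A, rather than of CDKN2A itself. 3′ UTRs were read from GENCODE v29 (GRCh38) by gene identifier, and promoters from RefSeq (GRCh38.p14) by symbol, and no coordinate was carried between builds.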

Additional observations from a re-analysis of the deposited data

Results flagged for a closer look

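Of 18 groups of 4 libraries examined, over the 8 rows and BARD1, 3 held a library whose gap to the nearest other was larger, as a share of the group's range, than Dixon's 95% critical value. Chance flags about 1 in 20 groups, and all 3 were libraries numbered 4. CKS1B was at 65.5 CPM in BARD1 siRNA library 4, against 95.1 to 98.5 CPM in BARD1 siRNA libraries 1 to 3. It was at 92.5 CPM in control siRNA library 4, against 123 to 127 CPM in control siRNA libraries 1 to 3. BARD1 was at 20.8 CPM in control siRNA library 4, against 26.9 to 28 CPM in control siRNA libraries 1 to 3.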

How the results depend on the processing

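The count of genes called between BARD1 siRNA and control siRNA, 733, was 3430 with the replicate block, 1549 with DESeq2 and 4428 without both libraries numbered 4. It was 178 to 2506 when libraries were left out in turn (864 without control siRNA library 4). The lists around SKP2, whose alternatives were chosen after seeing the data, held 9 called genes, 50 with the replicate block, 15 with upper-quartile scaling, 22 with DESeq2, 54 without both libraries numbered 4 and 2 to 25 with libraries left out in turn. The sign changed for the second CKS1B row, to 0.22 without both libraries numbered 4, with -0.42 to 0.21 over libraries left out in turn. It also changed for the difference of SKP2 between libraries numbered 4 and 1 to 3, which was 0.09 with upper-quartile scaling, 0.00 with the number as the unit and -0.04 to 0.02 over libraries left out in turn. The causes were not tested. The log2 fold changes of the other 7 rows kept their sign under every alternative run. The count of genes called in the comparison of libraries numbered 4 was 6281 to 6837 across its alternatives, and FPKM levels from TMM-scaled counts stayed within 1 SD of the deposited ones. Apart from the values given with the results, the block changed no other call of a member. CDKN1C, CDKN2D and the second CKS1B row had the fewest reads, and their SEs limit what can be said of their size.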
